A study of Mus musculus with 18 samples.

Results

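Hepatic stellate cells (HSC) that had shared a Matrigel culture with intrahepatic cholangiocyte organoids (ICO) for 7 days were compared with HSC kept alone in Matrigel for the same time. The comparison rested on 6 of the 18 libraries of the study, 3 co-culture HSC libraries and 3 libraries of HSC alone, and took in all genes. Other groups of 3 libraries were ICO from the same co-culture, ICO alone in Matrigel, HSC directly after isolation (day 0) and HSC after 7 days on plastic. The HSC were isolated from healthy wild-type mice, and the organoids carried the red fluorescent protein dTomato, by which mixed cultures can be sorted. Both kinds of culture received the same medium, a mixture of serum-containing DMEM and Advanced DMEM/F12 with EGF, FGF10, HGF, RSPO3, gastrin, nicotinamide, N-acetylcysteine, B27 and N2. The labels give both kinds of Matrigel culture a treatment code, CCM for the co-culture and MCM for the mono-culture, without spelling it out. Nothing in the labels says whether libraries came from separate animals or from pools, so p-values measure only how far these libraries spread, and that spread may be technical.

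Stellate cells are the pericytes of the liver sinusoid and the main store of vitamin A in the body, held as retinyl esters in lipid droplets. In injured liver they lose these droplets, become contractile myofibroblasts and lay down the collagen of scar tissue, a change called activation that also takes place on stiff culture plastic. Cholangiocytes line the bile ducts and, with the progenitor cells that grow out as organoids, lie next to stellate cells and portal fibroblasts in the ductular reaction of injured liver.

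Total counts were between 6907479 and 18764262 in co-culture HSC and between 12820644 and 15973353 in HSC alone. Spearman correlations across genes were 0.966 to 0.976 between co-culture HSC libraries, 0.953 to 0.975 between libraries of HSC alone and 0.864 to 0.934 between the groups. All levels are CPM, each library's counts brought to the same total after its size was scaled by edgeR's TMM factor, log2 fold changes are co-culture over alone with their standard error, and values of 3 libraries run from replicate 1 to 3. Organoid RNA was present in both groups. Its share, estimated from 17 cholangiocyte genes relative to the ICO of the same culture, was 28.0%, 15.3% and 41.9% in co-culture HSC, against 34.3%, 13.4% and 2.96% in HSC alone, with at most 0.254% at day 0 or on plastic. Mono-culture replicate 1 therefore lay within the range of the co-culture libraries and replicate 2 just below it, although their labels name no organoids. Whether these libraries hold what their labels say, or cultures or sorted fractions were mixed, cannot be told from the files, and HSC alone here means the libraries labelled so. Stellate markers were present in both groups, but of 14 tested 8 fell and 2 rose in co-culture HSC (median log2 fold change -1.86). Pdgfrb and Des were among those that did neither. Pdgfrb, the pericyte receptor for platelet-derived growth factor, had 234, 283 and 145 CPM in co-culture HSC, against 192, 208 and 256 CPM in HSC alone (log2 fold change 0.06 ± 0.19, adjusted p = 0.851), and the desmin gene Des had 89.99, 134 and 77.9 CPM in co-culture HSC, against 82.04, 84.1 and 104 CPM in HSC alone (0.20 ± 0.19, adjusted p = 0.434). Neither gene differed beyond the spread between libraries, and both were near 0 in co-culture ICO. Macrophage transcripts (169 genes tested) summed to 1033, 1487 and 1419 CPM in co-culture HSC, against 5552, 5688 and 7322 CPM in HSC alone and 1089 to 1247 CPM in co-culture ICO. The ICO sum held list members such as Cd14 and Pik3ap1, which reached 608 and 207 CPM there. Adgre1, Lyz2 and C1qa had at most 0, 5.74 and 0.207 CPM in co-culture ICO. Cd14 had 103 to 209 CPM in co-culture HSC and 58.7 to 201 CPM in HSC alone. Of the 169 genes 103 fell and 6 rose, 64.5% against 31.1% of all genes. In every co-culture HSC library 8 were at 0, and the Kupffer cell markers Clec4f and Timd4 were at or near 0 in both groups. Other markers of resident macrophages were not, Vsig4 having 0.512 to 2.30 CPM in co-culture HSC and 41.8 to 58.5 CPM in HSC alone and Cd163 having 0.128 to 0.362 CPM in co-culture HSC and 10.4 to 17.7 CPM in HSC alone, and both fell. In bulk RNA, fewer cells of a type and less RNA of that type per cell cannot be told apart. Endothelial markers summed to 541 to 811 CPM in co-culture HSC and 1215 to 1860 CPM in HSC alone, but to 121 to 191 CPM in co-culture HSC and 154 to 201 CPM in HSC alone without Eng, a TGF-beta co-receptor gene that fell. Lymphocyte markers summed to at most 2.54 CPM.

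**Figure D1:**
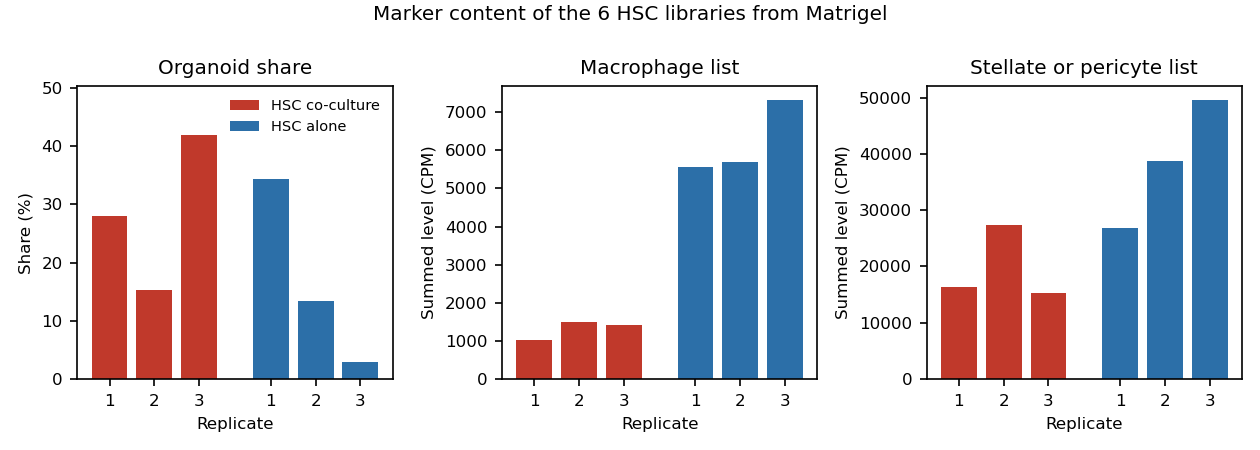
Organoid share in percent (left), summed level of the macrophage list in CPM (middle) and summed level of the stellate or pericyte list in CPM (right), 1 bar per HSC library in Matrigel. The organoid share is 15.3% to 41.9% in co-culture libraries, and mono-culture replicates 1 and 2 reach 34.3% and 13.4%, and the macrophage sum of every co-culture library lies below that of every library of HSC alone.

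With edgeR's quasi-likelihood test and Benjamini-Hochberg adjustment at a threshold of 0.05, 5290 of 17020 genes differed between co-culture HSC and HSC alone, 31.1% of those tested. A total of 2949 genes rose (17.3%) and 2341 fell (13.8%), and the median log2 fold change over all genes was 0.03. Of these, 1333 rose and 1548 fell by at least 2-fold. Levels did not overlap between the groups for 2630 of the genes that rose and 2295 of those that fell. Lack of overlap was also a condition of the rule by which called genes were named. Where it is stated below for such genes, it is therefore no separate evidence. When the fit held only the 6 libraries compared, 1605 genes rose and 1848 fell. Every gene that rose was set against the organoids of the same culture. For 1376 of them, 46.7%, the level in every co-culture HSC library was above that in every co-culture ICO library of the same culture. For the others at least 1 ICO library reached the level of a co-culture HSC library. With the estimated organoid share subtracted from every library, 3235 genes rose and 2607 fell. For 2064 of the genes that fell, 88.2%, every library of HSC alone lay above every library of ICO alone.

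**Figure D2:**
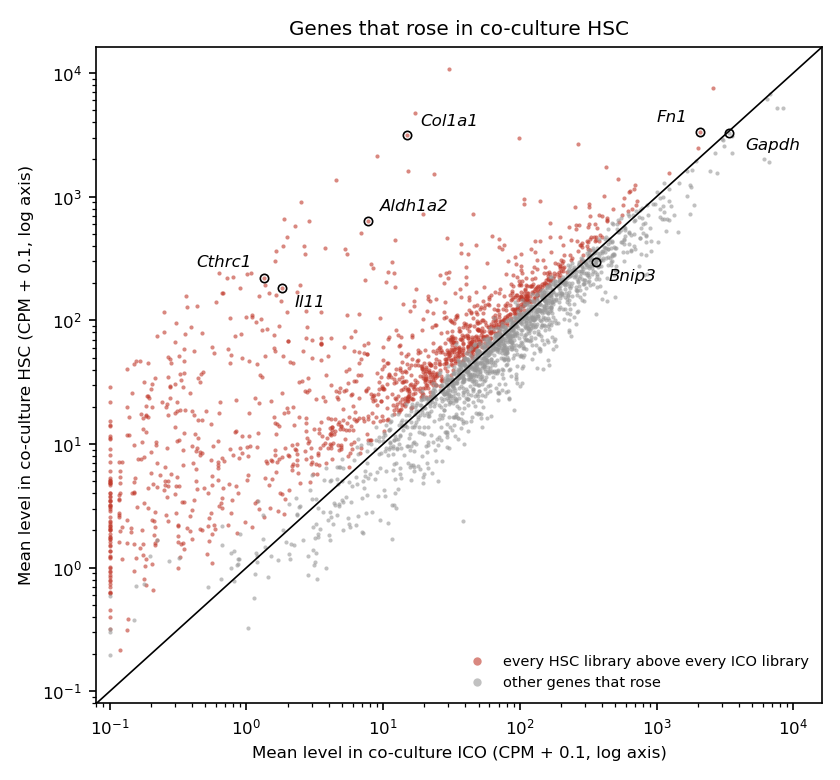
Mean level in co-culture HSC against mean level in co-culture ICO (CPM + 0.1, log axes, 3 libraries each) for the 2949 genes that rose in co-culture HSC. Red points are the 1376 genes above ICO in every library, grey points the others, the line marks equal levels, and Cthrc1, Il11, Aldh1a2 and Col1a1 lie far above it while Gapdh and Bnip3 lie on or below it.

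Among the largest rises were genes for secreted and signalling proteins that were at or near 0 in HSC alone. Cthrc1 (ENSMUSG00000054196), a secreted protein of collagen-producing fibroblasts, had 230.0, 251 and 184 CPM in co-culture HSC, against 0.0669, 0.396 and 0 CPM in HSC alone (log2 fold change 10.53 ± 0.43, adjusted p = 1.94e-08). Each co-culture library was above every library of HSC alone by more than an order of magnitude, and co-culture ICO had 0.484 to 2.05 CPM of Cthrc1. Cxcl14, a chemokine, had 251, 737 and 440.0 CPM in co-culture HSC, against 5.75, 1.25 and 1.40 CPM in HSC alone (7.47 ± 0.64, adjusted p = 1.82e-05). Arg1, the arginase that splits arginine into urea and ornithine, had 140.4, 269 and 95.9 CPM in co-culture HSC, against 0.334, 0 and 0.504 CPM in HSC alone (9.18 ± 0.63, adjusted p = 2.18e-06). It was at or near 0 in HSC alone, while HSC at day 0 had 553 ± 35.1 CPM (SD, n = 3). The day 0 libraries also held hepatocyte RNA, with hepatocyte markers summing to 43125 to 44255 CPM. The part of hepatocyte RNA in their Arg1 level was not tested. Mmp9, gelatinase B, had 48.4, 83.8 and 46.6 CPM in co-culture HSC, against 0.268, 0.330 and 0.392 CPM in HSC alone (7.49 ± 0.45, adjusted p = 1.04e-07). Its levels did not overlap between the groups. Nppc, the precursor of C-type natriuretic peptide, had 6.79 to 33.9 CPM in co-culture HSC and 0 to 0.134 CPM in HSC alone. The cytokine gene Tnfsf8 had 14.5 to 27.5 CPM in co-culture HSC and 0 to 0.0669 CPM in HSC alone, and Arhgap20, a gene for a GTPase-activating protein, had 27.6 to 41.5 CPM in co-culture HSC and 0.132 to 0.168 CPM in HSC alone. The adhesion molecule gene Chl1, Tmem59l, Defa29 and Aldh1a2 were also among the 12 largest rises that were above every co-culture ICO library. Defa29 had 15.8, 20.9 and 13.1 CPM in co-culture HSC and no count in HSC alone, at least 265-fold higher taking 3 counts over those libraries as its floor. It belongs to the alpha-defensins, whose near-identical copies can share reads, so its value is uncertain.

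Among the largest falls were genes of the resting stellate cell and of secreted plasma proteins. Ngfr (ENSMUSG00000000120), the low-affinity neurotrophin receptor found on stellate cells, had 1.02, 2.53 and 4.42 CPM in co-culture HSC, against 295, 279.7 and 499.6 CPM in HSC alone (log2 fold change -6.94 ± 0.39, adjusted p = 1.69e-07). Vipr1, a receptor for vasoactive intestinal peptide, had 2.69, 5.33 and 9.21 CPM in co-culture HSC, against 453, 709 and 661 CPM in HSC alone (log2 fold change -6.63 ± 0.59, adjusted p = 1.59e-05). Every co-culture library lay far below every library of HSC alone for both genes. Itih4, which encodes a heavy chain of the inter-alpha-trypsin inhibitors, had 3.71, 0.776 and 3.13 CPM in co-culture HSC, against 519, 234 and 787 CPM in HSC alone (-7.73 ± 1.39, adjusted p = 0.00249), and its relative Itih3 had 0.704 to 1.41 CPM in co-culture HSC and 58.02 to 151 CPM in HSC alone. Kit, the receptor for stem cell factor, had 0.128, 0.414 and 0.0640 CPM in co-culture HSC, against 15.8, 25.8 and 27.2 CPM in HSC alone (-6.58 ± 0.50, adjusted p = 6.74e-07). Cd36, a fatty acid transporter, had 0, 0.414 and 0.640 CPM in co-culture HSC, against 37.1, 43.1 and 83.2 CPM in HSC alone (-6.98 ± 0.80, adjusted p = 0.000126). None of these genes overlapped between the groups, which was a condition for naming them. Inmt, an indole N-methyltransferase gene, had 0.512 to 4.16 CPM in co-culture HSC and 157 to 347 CPM in HSC alone. The secreted Angptl6 had 0.896 to 8.51 CPM in co-culture HSC and 305 to 479 CPM in HSC alone. Fam180a, Mamdc2 and Egfem1 were also among the 12 largest falls. Akr1c14 was another, but its level in HSC alone was 36.8, 0.330 and 4.09 CPM, and its call was lost without co-culture replicate 2 (adjusted p = 0.0849), without co-culture replicate 3 (adjusted p = 0.0625) and without mono-culture replicate 1 and co-culture replicate 3 together (log2 fold change -5.65, adjusted p = 0.0577).

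Of 38 fibrillar matrix genes tested, 25 rose in co-culture HSC and 7 fell, 84.2% against 31.1% of all genes. The median log2 fold change was 1.86, and 23 of those that rose were above every co-culture ICO library. The summed level of the list overlapped between the groups, with 39930, 56330 and 36760 CPM in co-culture HSC, against 31790, 37690 and 48670 CPM in HSC alone. Col1a1 (ENSMUSG00000001506), the main chain of collagen I, had 2534, 4329 and 2633 CPM in co-culture HSC, against 134, 90.3 and 137 CPM in HSC alone (log2 fold change 4.76 ± 0.24, adjusted p = 3.56e-08). Its partner chain gene Col1a2 had 2115, 2677 and 1595 CPM in co-culture HSC, against 239, 259.8 and 321 CPM in HSC alone (3.01 ± 0.19, adjusted p = 1.44e-07). Col3a1, the collagen of early scar, had 8352, 15870 and 8240 CPM in co-culture HSC, against 614, 588 and 749.7 CPM in HSC alone (4.10 ± 0.27, adjusted p = 2.37e-07). In all 3 genes each co-culture library held several times the level of each library of HSC alone, and co-culture ICO had at most 48.4 CPM of Col3a1 and 22.97 CPM of Col1a1. The collagen V genes Col5a1, Col5a2 and Col5a3, whose product nucleates collagen I fibrils, rose by 1.09 ± 0.24, 3.47 ± 0.21 and 3.44 ± 0.38 on the log2 scale. Col12a1, a collagen on the surface of fibrils, had 135, 115 and 97.9 CPM in co-culture HSC, against 1.67, 0.527 and 0.728 CPM in HSC alone (6.95 ± 0.51, adjusted p = 2.81e-06). Col15a1 had 24.6, 31.8 and 14.3 CPM in co-culture HSC, against 1.07, 0.659 and 1.40 CPM in HSC alone (4.52 ± 0.53, adjusted p = 3.16e-05). Both were near 0 in every library of HSC alone and did not overlap between the groups.

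Procollagen is hydroxylated, trimmed and cross-linked by enzymes and guided by a chaperone. Bmp1, the protease that trims the C-propeptide of procollagen, had 363, 416 and 278 CPM in co-culture HSC, against 47.1, 49.2 and 44.6 CPM in HSC alone (log2 fold change 2.95 ± 0.15, adjusted p = 3.56e-08). Lox, the lysyl oxidase that starts collagen cross-links, had 248, 509 and 332 CPM in co-culture HSC, against 8.96, 1.71 and 7.17 CPM in HSC alone (5.97 ± 0.49, adjusted p = 8.91e-06). Loxl2 and Loxl1 rose too (log2 fold changes 2.05 and 1.13). The collagen prolyl hydroxylase gene P4ha3, the lysyl hydroxylase gene Plod2 and Serpinh1, the collagen chaperone HSP47, also rose (log2 fold changes 4.14, 1.65 and 1.30). Pcolce, an enhancer of the propeptide protease, fell by 0.57 log2 units (adjusted p = 0.0106). Among glycoproteins, Tnc, tenascin C, had 438, 429 and 265 CPM in co-culture HSC, against 50.1, 7.58 and 6.38 CPM in HSC alone (4.21 ± 0.72, adjusted p = 0.00179). Fn1, fibronectin, had 3502, 3521 and 2922 CPM in co-culture HSC, against 457, 319.5 and 176 CPM in HSC alone (3.44 ± 0.30, adjusted p = 3.21e-06), with 1925 to 2239 CPM in co-culture ICO. Fn1 was above the organoids in every library, and organoid RNA at the estimated share would make up 17.8% of its mean co-culture level.

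Other matrix genes fell. Dcn, decorin, a proteoglycan that binds collagen fibrils, had 4408, 6299 and 3857 CPM in co-culture HSC, against 15070, 20760 and 27730 CPM in HSC alone (-2.09 ± 0.30, adjusted p = 0.000157). Lum, lumican, had 831, 1638 and 1004 CPM in co-culture HSC, against 5966, 7759 and 10310 CPM in HSC alone (-2.75 ± 0.45, adjusted p = 0.000738). Each co-culture library was below every library of HSC alone in both genes. Col14a1 had 17.7, 30.4 and 25.2 CPM in co-culture HSC, against 199, 236 and 251 CPM in HSC alone (-3.18 ± 0.24, adjusted p = 6.53e-07). The collagen VI genes Col6a1 and Col6a2 fell by 1.53 and 1.43 log2 units (adjusted p = 4.91e-05 and 3.9e-05), and Eln, elastin, by 2.85 (adjusted p = 0.00966).

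Of 20 basement membrane genes 7 rose and 1 fell (median log2 fold change 0.81), 4 of the 7 above every co-culture ICO library. The genes called were 40% of the list, against 31.1% of all genes. Col4a1, a chain of the collagen IV network, had 796, 1263 and 818 CPM in co-culture HSC, against 316, 238 and 301 CPM in HSC alone (1.80 ± 0.19, adjusted p = 1.53e-05), and its partner Col4a2 rose by 1.55 on the log2 scale. Lama2, a laminin chain, was the member that fell (-2.12 ± 0.23, adjusted p = 1.4e-05). Among 29 matrix proteases and their inhibitors 13 rose, each above every co-culture ICO library, and 5 fell (median 0.97), 62.1% against 31.1% of all genes. Timp1, the metalloproteinase inhibitor of activated HSC, had 600.5, 902 and 680.3 CPM in co-culture HSC, against 33.6, 9.10 and 24.2 CPM in HSC alone (log2 fold change 5.07 ± 0.46, adjusted p = 1.55e-05). Timp3, which binds to the matrix, had 933, 1270 and 1041 CPM in co-culture HSC, against 130.4, 76.1 and 19.3 CPM in HSC alone (3.90 ± 0.52, adjusted p = 0.000297). Timp2 moved the other way, with 102, 89.01 and 94.4 CPM in co-culture HSC, against 165, 255 and 239 CPM in HSC alone (-1.16 ± 0.17, adjusted p = 0.00021). The aggrecanase gene Adamts4 had 53.5 to 118 CPM in co-culture HSC and 2.77 to 5.42 CPM in HSC alone, and stromelysin 1, Mmp3, had 77.6 to 181 CPM in co-culture HSC and 7.19 to 18.1 CPM in HSC alone. In plasminogen activation the genes split. Plat, tissue-type plasminogen activator, had 728, 1030 and 738 CPM in co-culture HSC, against 69.1, 34.8 and 17.02 CPM in HSC alone (4.42 ± 0.45, adjusted p = 3.83e-05), and Plau, the urokinase, had 9.09, 13.2 and 13.4 CPM in co-culture HSC, against 42.5, 27.4 and 49.7 CPM in HSC alone (-1.69 ± 0.24, adjusted p = 0.000127). Serpine2, an inhibitor of these proteases, rose by 4.62 log2 units (adjusted p = 0.000418).

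Contractile genes rose, 19 of 24, with a median log2 fold change of 1.24, and 17 of the 19 were above every co-culture ICO library. Acta2 (ENSMUSG00000035783), the smooth muscle actin that marks myofibroblasts, had 696, 734 and 469 CPM in co-culture HSC, against 68.4, 0.462 and 3.75 CPM in HSC alone (log2 fold change 4.78 ± 1.26, adjusted p = 0.0175). ICO alone had 0.285 to 0.545 CPM of Acta2 and co-culture ICO 1.66 to 4.045 CPM. The 3 co-culture HSC libraries were alike, while the libraries of HSC alone ranged widely with replicate 1 highest. Without that replicate the log2 fold change was 8.22, and with only the 6 libraries compared the call was lost (adjusted p = 0.103). Tagln, transgelin, had 161, 166 and 158 CPM in co-culture HSC, against 21.3, 0.857 and 2.69 CPM in HSC alone (4.36 ± 0.86, adjusted p = 0.00411), and Cnn1, calponin 1, had 33.9, 39.5 and 29.9 CPM in co-culture HSC, against 3.54, 0.264 and 0 CPM in HSC alone (4.87 ± 0.84, adjusted p = 0.00201). As with Acta2, mono-culture replicate 1 was the highest of its group in both. The tropomyosin gene Tpm2 had 274, 183 and 125 CPM in co-culture HSC, against 24.3, 3.76 and 5.82 CPM in HSC alone (4.17 ± 0.62, adjusted p = 0.000736). Neither tropomyosin gene overlapped between the groups, Tpm4 having 1208, 1291 and 992 CPM in co-culture HSC, against 427, 273 and 252 CPM in HSC alone (1.93 ± 0.19, adjusted p = 5.89e-06), and Pdlim7, a PDZ and LIM domain protein of actin filaments, rose by 1.21 log2 units (adjusted p = 5.51e-05). HSC on plastic averaged 4420 ± 752 CPM of Acta2 (SD, n = 3). The CArG box bound by serum response factor was found in the promoters of 3 of 21 members with a RefSeq promoter (14.3%), Cnn2, Myl9 and Vcl, and in 1.81% of 27025 genes. It was in 3 of 16 members that rose and 0 of 5 not called. A link of the box to the rise was not tested. Searches of this kind covered both strands of 300 bases, 250 before to 50 after the start of each gene.

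**Figure D3:**
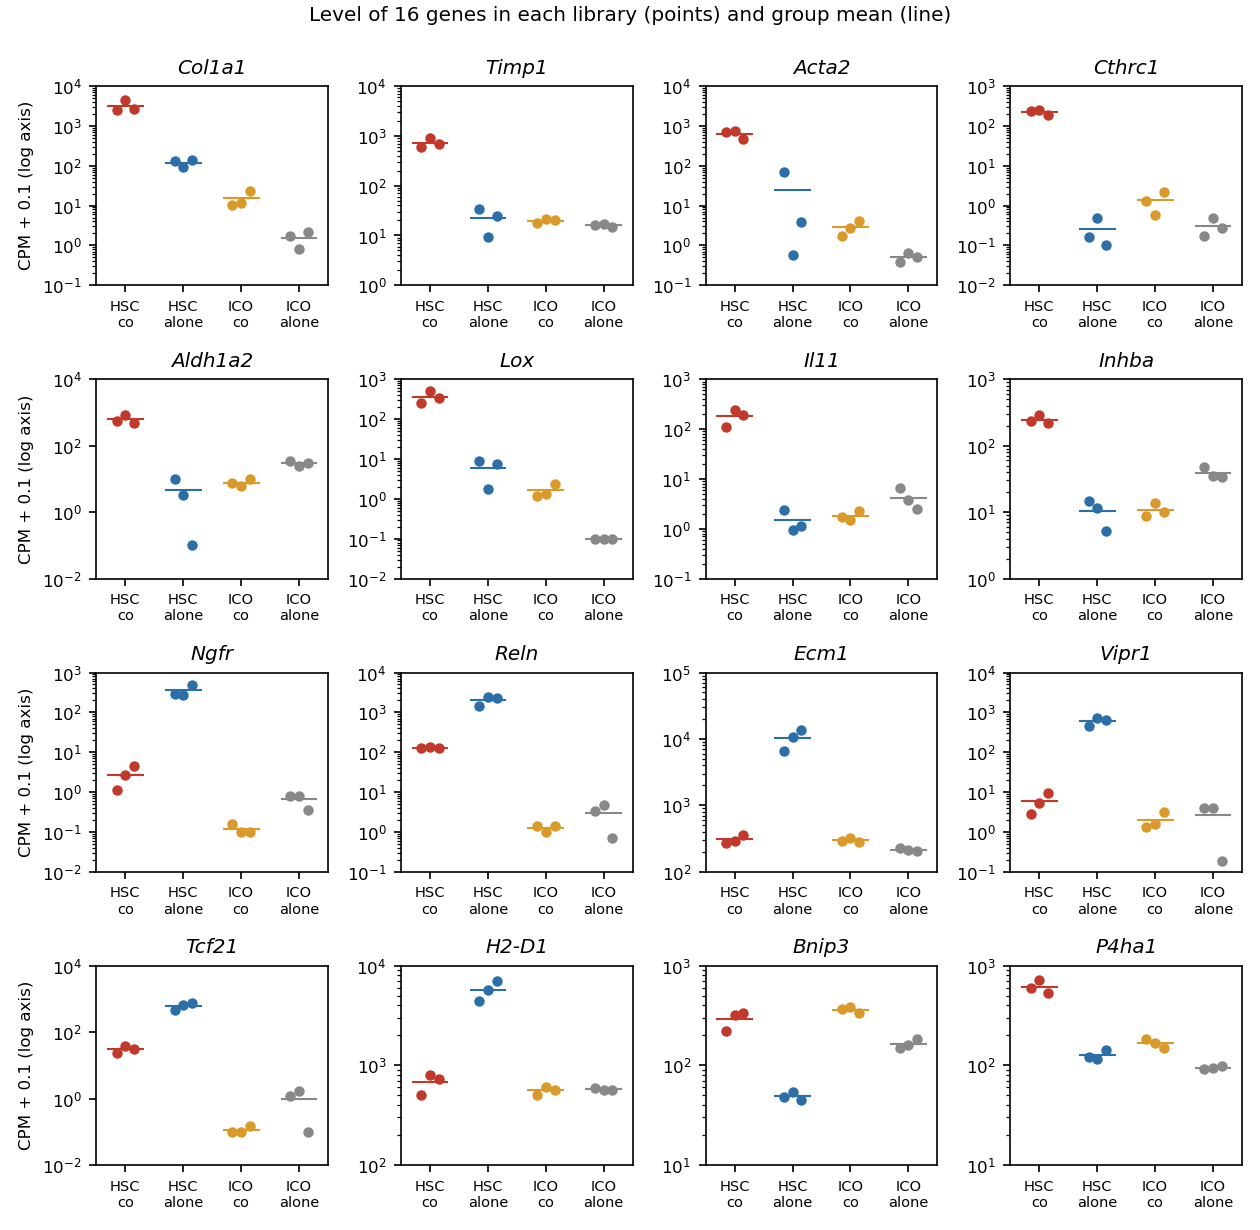
Level of 16 genes (CPM + 0.1, log axes) in each library of co-culture HSC, HSC alone, co-culture ICO and ICO alone, 3 points per group with a line at the group mean. The genes from Col1a1 to Inhba are higher in co-culture HSC than in every other group shown, those from Ngfr to H2-D1 are highest in HSC alone, and of the last pair Bnip3 is as high in co-culture ICO as in co-culture HSC while P4ha1 is not.

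Most genes of the quiescent stellate cell fell. Of 24 tested, 16 fell and 2 rose, with a median log2 fold change of -2.55. Reln (ENSMUSG00000042453), the glycoprotein reelin, had 127, 137 and 125 CPM in co-culture HSC, against 1465, 2388 and 2340 CPM in HSC alone (log2 fold change -3.95 ± 0.29, adjusted p = 5.92e-07). Ecm1, a secreted matrix protein known to restrain activation of latent TGF-beta in liver, had 268, 292 and 363 CPM in co-culture HSC, against 6652, 10750 and 13540 CPM in HSC alone (-5.03 ± 0.29, adjusted p = 7.99e-08). Co-culture ICO had 283 to 327 CPM, close to the co-culture HSC. Tcf21, a transcription factor of stellate cells, had 24.1, 38.95 and 31.5 CPM in co-culture HSC, against 471, 660.5 and 769.7 CPM in HSC alone (log2 fold change -4.28 ± 0.22, adjusted p = 3.56e-08). Lhx2, a transcription factor needed to keep stellate cells quiescent in mouse liver, had 3.97, 8.69 and 4.99 CPM in co-culture HSC, against 29.9, 66.8 and 58.8 CPM in HSC alone (-3.06 ± 0.32, adjusted p = 1.78e-05), and Hand2 had 13.9, 18.9 and 15.3 CPM in co-culture HSC, against 32.8, 65.8 and 57.01 CPM in HSC alone (-1.64 ± 0.23, adjusted p = 0.000136). All 3 factors were lower in each co-culture library than in any library of HSC alone. Gfap, an intermediate filament gene of astrocytes and stellate cells, had 0.207 to 0.512 CPM in co-culture HSC and 9.90 to 14.3 CPM in HSC alone, Colec11, a collectin, had 10.8 to 17.8 CPM in co-culture HSC and 375 to 658 CPM in HSC alone, and Hgf, hepatocyte growth factor, had 378 to 602 CPM in co-culture HSC and 826 to 1151 CPM in HSC alone. Nes, nestin, an intermediate filament of activated stellate cells, rose and had 112, 116 and 100.2 CPM in co-culture HSC, against 18.8, 13.1 and 6.27 CPM in HSC alone (3.16 ± 0.28, adjusted p = 5.69e-06). The quiescence genes fell in libraries whose summed stellate list was 16392, 27369 and 15364 CPM, against 26879, 38775 and 49567 CPM in HSC alone. That sum holds genes that fell, such as Dcn and Ecm1, and Col3a1, which rose, so it is no separate measure of stellate cell content.

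Retinoid genes moved in both directions. Of 22 tested, 9 rose and 4 fell (median 0.63), 59.1% against 31.1% of all genes. Of the 9, 6 were above every co-culture ICO library. Among those that rose were genes for enzymes that make and degrade retinoic acid. Aldh1a2 (ENSMUSG00000013584), which oxidizes retinal to retinoic acid, had 563, 830.2 and 498 CPM in co-culture HSC, against 10.03, 3.10 and 0 CPM in HSC alone (log2 fold change 7.25 ± 1.01, adjusted p = 0.000549). ICO of the same culture had 6.08 to 9.59 CPM, and HSC at day 0 and on plastic had 0.767 ± 0.692 CPM and 0.867 ± 0.567 CPM (SD, n = 3 each). ICO alone had 24.3 to 33.7 CPM. Organoid RNA at the estimated share would make up 113% of the mean Aldh1a2 level in HSC alone and 0.344% of that in co-culture HSC. The other retinaldehyde dehydrogenase of stellate cells, Aldh1a1, went the opposite way with 2.69, 8.07 and 5.89 CPM in co-culture HSC, against 70.01, 66.9 and 75.9 CPM in HSC alone (log2 fold change -3.57 ± 0.24, adjusted p = 3.17e-07). Cyp26a1 and Cyp26b1, which degrade retinoic acid, were low but higher in co-culture. Cyp26a1 had 2.56, 2.07 and 0.896 CPM in co-culture HSC and no count in HSC alone, at least 29.5-fold higher. Cyp26b1 had 4.61, 5.07 and 4.93 CPM in co-culture HSC, against 1.20, 0.132 and 0.0560 CPM in HSC alone (3.48 ± 0.55, adjusted p = 0.000441). Rarb, a retinoic acid receptor whose own gene is a known target of retinoic acid, had 91.2, 109.6 and 64.2 CPM in co-culture HSC, against 27.6, 35.9 and 46.9 CPM in HSC alone (log2 fold change 1.31 ± 0.21, adjusted p = 0.000429). Crabp2, the binding protein that delivers retinoic acid to its receptors, had 1.60 to 2.43 CPM in co-culture HSC and 0 to 0.0669 CPM in HSC alone, and Dhrs3, which turns retinal back to retinol, had 518, 778 and 613 CPM in co-culture HSC, against 152, 155 and 196 CPM in HSC alone (1.97 ± 0.16, adjusted p = 1.06e-06). Rxra, a partner of the retinoic acid receptors, had 16.5, 28.3 and 22.5 CPM in co-culture HSC, against 101, 151 and 147 CPM in HSC alone (-2.52 ± 0.25, adjusted p = 9.7e-06). Lrat, the enzyme that esterifies retinol for storage, had 519.6, 1018 and 526 CPM in co-culture HSC, against 377, 545 and 632 CPM in HSC alone, and these groups overlapped (log2 fold change 0.45 ± 0.37, adjusted p = 0.381). Stra6, a retinol transporter gene, had 19.6 to 40.8 CPM in co-culture HSC and 0.840 to 12.8 CPM in HSC alone, with 87.8 to 119 CPM in co-culture ICO.

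The DR5 retinoic acid response element, a direct repeat of the receptor half-site, was found in the promoters of Cyp26a1 and Rarb, 2 of 17 members of the retinoid list with a RefSeq promoter (11.8%) and 0.115% of 27025 genes. Both genes rose in co-culture HSC, and their promoters are shown for that reason, with the element in capitals. A link of the element to their rise was not tested. They are RefSeq sequences of build GRCm38.p6, Cyp26a1 from chr19:37697558-37697857 on the plus strand, with the element on its reverse strand, and Rarb, 1 of its promoters, from chr14:16575427-16575726 on the minus strand, each 250 bases upstream to 50 bases into the gene.
Cyp26a1: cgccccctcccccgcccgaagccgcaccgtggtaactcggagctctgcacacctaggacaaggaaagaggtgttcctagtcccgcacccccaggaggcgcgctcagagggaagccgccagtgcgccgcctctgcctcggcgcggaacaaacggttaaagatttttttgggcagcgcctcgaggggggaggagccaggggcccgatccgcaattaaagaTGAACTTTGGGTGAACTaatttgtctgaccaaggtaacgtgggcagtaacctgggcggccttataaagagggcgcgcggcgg
Rarb: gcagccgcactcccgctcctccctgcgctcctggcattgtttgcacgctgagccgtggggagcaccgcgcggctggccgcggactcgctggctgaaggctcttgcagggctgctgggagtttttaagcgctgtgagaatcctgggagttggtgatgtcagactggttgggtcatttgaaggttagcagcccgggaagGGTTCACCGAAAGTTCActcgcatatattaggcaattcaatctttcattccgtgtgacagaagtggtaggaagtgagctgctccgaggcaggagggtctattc

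Of 21 genes of lipid uptake and storage 11 fell and 5 rose (median log2 fold change -0.78), 76.2% against 31.1% of all genes. Lpl, lipoprotein lipase, had 131, 218 and 129.7 CPM in co-culture HSC, against 628, 682 and 882 CPM in HSC alone (log2 fold change -2.16 ± 0.20, adjusted p = 4.58e-06). Fabp4, a fatty acid-binding protein of fat cells and macrophages, had 0.768, 0.672 and 0.960 CPM in co-culture HSC, against 19.8, 6.33 and 74.4 CPM in HSC alone (-5.35 ± 0.94, adjusted p = 0.00168). Plin2, which coats the lipid droplets of stellate cells, had 172, 178 and 165 CPM in co-culture HSC, against 266, 329 and 327 CPM in HSC alone (-0.80 ± 0.13, adjusted p = 0.000416). The 3 genes did not overlap between the groups, Plin2 having the smallest fold change of them. Cidec, which fuses lipid droplets, had no count in co-culture HSC and 0.869, 0.527 and 5.66 CPM in HSC alone, at least 33.5-fold lower. Hilpda, an inhibitor of triglyceride breakdown that hypoxia induces, rose with 102, 92.99 and 109 CPM in co-culture HSC, against 30.2, 29.5 and 29.3 CPM in HSC alone (1.82 ± 0.12, adjusted p = 1.63e-07). Mgll, the monoacylglycerol lipase, fell by 1.96 and Acsl4, an acyl-CoA synthetase, rose by 0.79 on the log2 scale. Macrophages also express Cd36 and Fabp4, and the part of the lower macrophage RNA in their fall was not tested.

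In the TGF-beta and activin pathway 14 of 26 genes rose and 4 fell (median log2 fold change 0.61), 69.2% against 31.1% of all genes. Of the 14, 7 were above every co-culture ICO library. Inhba (ENSMUSG00000041324), the subunit of activin A, had 234, 289 and 218 CPM in co-culture HSC, against 14.6, 11.5 and 5.10 CPM in HSC alone (log2 fold change 4.63 ± 0.30, adjusted p = 4.68e-07). Fst, follistatin, which binds and blocks activin, had 136, 112 and 98.7 CPM in co-culture HSC, against 9.29, 8.57 and 0.616 CPM in HSC alone (4.30 ± 0.65, adjusted p = 0.000723). The ligand and its inhibitor both lay above every library of HSC alone and every co-culture ICO library. Tgfb2 had 43.4, 56.9 and 46.8 CPM in co-culture HSC, against 14.8, 6.13 and 2.07 CPM in HSC alone (2.74 ± 0.50, adjusted p = 0.0019) and Tgfb3 had 137, 188 and 143 CPM in co-culture HSC, against 41.99, 10.7 and 7.11 CPM in HSC alone (3.03 ± 0.54, adjusted p = 0.0021), whereas Tgfb1 had 3.46, 9.57 and 6.78 CPM in co-culture HSC, against 4.08, 3.89 and 4.20 CPM in HSC alone (0.76 ± 0.38, adjusted p = 0.148). Of the receptors, Tgfbr1 rose by 0.85 log2 units (adjusted p = 0.008), while the co-receptors Tgfbr3, betaglycan, and Eng, endoglin, fell. Tgfbr3 had 57.5, 74.01 and 59.8 CPM in co-culture HSC, against 390.2, 574 and 632 CPM in HSC alone (-3.02 ± 0.23, adjusted p = 6.8e-07), and Eng had 420.0, 620.5 and 404 CPM in co-culture HSC, against 1061, 1331 and 1660 CPM in HSC alone (-1.45 ± 0.20, adjusted p = 0.000122). The feedback genes Smad7, Skil and Pmepa1 rose by 0.78 to 1.63 on the log2 scale, and each was higher in co-culture ICO than in the mean of co-culture HSC. Ltbp4, a latent TGF-beta binding protein, had 36.4, 42.2 and 30.8 CPM in co-culture HSC, against 224, 339 and 355 CPM in HSC alone (-3.03 ± 0.28, adjusted p = 5.14e-06), and Ltbp2 had 19.6 to 43.5 CPM in co-culture HSC and 2.50 to 7.02 CPM in HSC alone.

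In the BMP list 7 of 24 genes fell and 2 rose (median log2 fold change -0.15). The genes called were 37.5% of the list, near the 31.1% of all genes. Gdf2, which encodes BMP9, a ligand made by stellate cells in liver, had 18.4, 23.6 and 19.6 CPM in co-culture HSC, against 588, 689 and 893 CPM in HSC alone (log2 fold change -5.09 ± 0.64, adjusted p = 0.000227). Bmp5 had 50.7, 94.7 and 65.7 CPM in co-culture HSC, against 313, 397 and 463 CPM in HSC alone (-2.43 ± 0.21, adjusted p = 2.49e-06), and Bmp10 had 5.25, 6.52 and 1.98 CPM in co-culture HSC, against 19.7, 29.7 and 22.6 CPM in HSC alone (-2.35 ± 0.31, adjusted p = 0.000138). All 3 ligands were near 0 in co-culture ICO and did not overlap between the HSC groups. Bmpr2 and Smad6, a feedback inhibitor, fell too (log2 fold changes -0.92 and -2.04), and Smad1, a signal transducer of the pathway, rose (log2 fold change 1.40).

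Several cytokines of the interleukin-6 family were higher in co-culture HSC. Of 16 genes of the family and its signalling tested, 8 rose and 3 fell (median 0.51), 68.8% against 31.1% of all genes. Of the 8, 6 were above every co-culture ICO library. Il11 (ENSMUSG00000004371), a cytokine that acts on fibroblasts, had 108, 247 and 190.0 CPM in co-culture HSC, against 2.27, 0.857 and 1.01 CPM in HSC alone (log2 fold change 7.09 ± 0.38, adjusted p = 1.01e-07). Il6 had 10.2, 6.98 and 5.12 CPM in co-culture HSC, against 0.401, 0.330 and 0.0560 CPM in HSC alone (4.87 ± 0.52, adjusted p = 1.43e-05), and Lif had 13.7, 21.4 and 19.7 CPM in co-culture HSC, against 8.89, 3.43 and 3.02 CPM in HSC alone (1.90 ± 0.38, adjusted p = 0.0021). Lif was as high in co-culture ICO, with 15.2 to 21.7 CPM, and Il11 was not, with 1.38 to 2.15 CPM. Among receptors, Osmr, for oncostatin M, had 312, 321 and 226 CPM in co-culture HSC, against 96.4, 63.2 and 134 CPM in HSC alone (1.59 ± 0.23, adjusted p = 0.000195), while Il11ra1, the receptor chain for interleukin-11, had 46.3, 74.1 and 56.6 CPM in co-culture HSC, against 130.5, 156 and 160.4 CPM in HSC alone (-1.29 ± 0.16, adjusted p = 3.78e-05). Lifr and the kinase gene Jak1 fell by 0.53 and 0.72 on the log2 scale, and Stat3 rose by 0.57. Lifr was not called with the organoid share as a covariate (adjusted p = 0.0922).

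Of 23 chemokines 11 fell, while Cxcl14, Ccl11 and Ccl17 rose, 60.9% against 31.1% of all genes. The median log2 fold change was -1.15, or -1.02 with genes at 0 in a group at their bound. Cxcl12, the stellate cell ligand of CXCR4, had 545, 1030 and 559.8 CPM in co-culture HSC, against 2671, 3612 and 4197 CPM in HSC alone (log2 fold change -2.26 ± 0.26, adjusted p = 2.27e-05). Ccl2, the monocyte attractant, had 71.7, 72.2 and 79.3 CPM in co-culture HSC, against 242, 119 and 319 CPM in HSC alone (-1.56 ± 0.28, adjusted p = 0.00107), with 67.97 to 82.5 CPM in co-culture ICO. Ccl4 had 3.58, 8.999 and 6.08 CPM in co-culture HSC, against 34.7, 37.1 and 56.4 CPM in HSC alone (-2.71 ± 0.41, adjusted p = 0.000347), and Cxcl13 had no count in co-culture HSC and 15.2, 3.03 and 10.02 CPM in HSC alone, at least 134-fold lower. Ccl17 was not called with the organoid share as a covariate (adjusted p = 0.0599) or without mono-culture replicate 1 and co-culture replicate 3 together (adjusted p = 0.127). Of the 11 that fell, 3 are also in the macrophage list, whose sum fell as given above, and the part of macrophage RNA in the result was not tested. Without co-culture replicate 3, or without it and mono-culture replicate 1, 7 fell. In the NF-kB list 6 of 20 fell and 3 rose (median -0.33), 45% against 31.1% of all genes. Vcam1, an adhesion receptor for leukocytes, had 404, 606 and 458 CPM in co-culture HSC, against 1029, 1072 and 1568 CPM in HSC alone (-1.28 ± 0.21, adjusted p = 0.000388), and Tnfaip6, a hyaluronan-binding protein, had 24.1, 42.3 and 21.9 CPM in co-culture HSC, against 1.34, 0.989 and 2.58 CPM in HSC alone (4.19 ± 0.35, adjusted p = 1.59e-06). Tnfaip2 rose by 2.61 and Birc3, an inhibitor of apoptosis, fell by 1.07 on the log2 scale.

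Of 32 ligands of receptor tyrosine kinases 11 rose and 5 fell (median log2 fold change 0.66), 50% against 31.1% of all genes. Of the 11, 7 were above every co-culture ICO library. Ereg, epiregulin, a ligand of the EGF receptor, had 153, 231 and 151 CPM in co-culture HSC, against 20.1, 10.2 and 6.83 CPM in HSC alone (log2 fold change 3.91 ± 0.35, adjusted p = 7.74e-06). Fgf2 had 75.7, 87.05 and 63.8 CPM in co-culture HSC, against 9.76, 11.3 and 13.6 CPM in HSC alone (2.75 ± 0.22, adjusted p = 9.23e-07), and Igf1 had 109, 166 and 114 CPM in co-culture HSC, against 13.97, 18.1 and 24.9 CPM in HSC alone (2.81 ± 0.39, adjusted p = 0.00035). Each co-culture library was higher than every library of HSC alone for all 3 ligands. Fgf7, a fibroblast factor that acts on epithelium, had 6.91 to 17.8 CPM in co-culture HSC and 1.40 to 3.64 CPM in HSC alone, and Vegfc had 25.5 to 41.5 CPM in co-culture HSC and 8.22 to 10.9 CPM in HSC alone. Vegfa had 28.2 to 56.1 CPM in co-culture HSC and 5.71 to 11.9 CPM in HSC alone, with 33.7 to 42.3 CPM in co-culture ICO. Ligands that fell were Hgf, Csf1, Ntf3, Vegfd and Angpt1, of which Vegfd and Angpt1 were not called after the organoid share was subtracted (log2 fold changes -1.73 and -2.20, adjusted p = 0.0666 and 0.0971). Hgf, a mitogen for hepatocytes and cholangiocytes that was also in the medium, had 378, 602 and 378 CPM in co-culture HSC, against 826, 884 and 1151 CPM in HSC alone (-1.03 ± 0.26, adjusted p = 0.00967). Csf1, the growth factor of macrophages, had 89.3, 136 and 83.8 CPM in co-culture HSC, against 355, 358 and 519 CPM in HSC alone (-1.95 ± 0.21, adjusted p = 1.18e-05). The count of ligands that fell was 3 without co-culture replicate 2 or 3 or without mono-culture replicate 2 or 3.

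Among 28 receptor genes 5 rose and 6 fell, 39.3% of them against 31.1% of all genes. Axl, a receptor for Gas6, had 272, 359.8 and 226 CPM in co-culture HSC, against 71.01, 39.2 and 54.3 CPM in HSC alone (2.43 ± 0.21, adjusted p = 2.33e-06), and Mertk, a receptor of the same family that macrophages use to take up dying cells, had 3.84, 4.66 and 1.60 CPM in co-culture HSC, against 28.4, 33.95 and 32.03 CPM in HSC alone (-3.18 ± 0.29, adjusted p = 3.13e-06). Egfr rose by 1.26 (adjusted p = 8.39e-06) and Pdgfra fell by 0.99 log2 units (adjusted p = 0.00268). Without mono-culture replicate 1, 9 receptor genes rose, and without mono-culture replicate 3, 3 rose. Without co-culture replicate 2 or mono-culture replicate 2, 3 fell. In the IGF-binding list 5 of 11 rose and none fell (median 1.80, or 1.33 with a gene at 0 at its bound). The genes called were 45.5% of the list, against 31.1% of all genes. Igfbp5 had 49.2, 52.03 and 40.7 CPM in co-culture HSC, against 0.535, 1.39 and 2.86 CPM in HSC alone (4.90 ± 0.54, adjusted p = 3.4e-05) and Igfbp4 had 600.5, 1066 and 712 CPM in co-culture HSC, against 184, 170.4 and 146 CPM in HSC alone (2.29 ± 0.26, adjusted p = 2.72e-05). Both were higher in each co-culture library than in any library of HSC alone. In the same list 2 genes had an unadjusted p under 0.05 and a lower level, and 2 fell by DESeq2, without co-culture replicate 2 or without mono-culture replicate 1.

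Of 28 Wnt pathway genes 13 rose and 2 fell (median log2 fold change 1.26), 53.6% against 31.1% of all genes. Of the 13, 11 were above every co-culture ICO library. Wnt5a, a ligand that acts mostly without beta-catenin, had 16.5, 17.02 and 10.3 CPM in co-culture HSC, against 0.401, 0.462 and 1.23 CPM in HSC alone (log2 fold change 4.38 ± 0.55, adjusted p = 5.55e-05). Wnt2 had 13.6, 13.4 and 5.89 CPM in co-culture HSC, against 0.602, 0.593 and 0.896 CPM in HSC alone (3.99 ± 0.39, adjusted p = 5.61e-06), and Wnt11 had 10.6, 27.6 and 26.3 CPM in co-culture HSC, against 0.201, 0 and 0.728 CPM in HSC alone (6.06 ± 0.85, adjusted p = 0.0002). All 3 ligands were near 0 in every library of HSC alone. Lef1, a transcription factor of the pathway, had 12.4, 22.9 and 11.3 CPM in co-culture HSC, against 0.0669, 0.132 and 0.280 CPM in HSC alone (6.53 ± 0.76, adjusted p = 2.93e-05), Notum, a Wnt deacylase, had 4.67 to 9.93 CPM in co-culture HSC and 0.201 to 1.05 CPM in HSC alone, and Dkk2 had 10.6 to 27.1 CPM in co-culture HSC and 0.264 to 0.448 CPM in HSC alone. Rspo3, an amplifier of Wnt signalling that the medium also held, had 70.5, 142 and 90.9 CPM in co-culture HSC, against 533, 791 and 848 CPM in HSC alone (-2.80 ± 0.28, adjusted p = 1.09e-05). It and Nkd1, an intracellular Wnt inhibitor (-0.92 ± 0.22, adjusted p = 0.00599), were the members that fell. Lgr5, a receptor for R-spondins, had 85.9, 18.1 and 65.8 CPM in co-culture HSC, against 13.3, 9.36 and 0.280 CPM in HSC alone (2.96 ± 0.94, adjusted p = 0.0391), with 119.9 to 156 CPM in co-culture ICO, above both, and its call was lost with the organoid share as a covariate (adjusted p = 0.0704) and without mono-culture replicate 1 and co-culture replicate 3 together (adjusted p = 0.0759). Fzd1, a Wnt receptor, rose by 1.98 ± 0.20 log2 units (adjusted p = 9e-06).

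Most receptors and mediators of vasoactive signals were lower. Of 21 genes 16 fell and 2 rose, with a median log2 fold change of -1.67. Agtr1a, the receptor for angiotensin II, had 90.6, 137 and 96.7 CPM in co-culture HSC, against 700.0, 994 and 1147 CPM in HSC alone (log2 fold change -3.09 ± 0.22, adjusted p = 4.21e-07). Calcrl, the receptor for adrenomedullin and calcitonin gene-related peptide, had 62.2, 108 and 70.4 CPM in co-culture HSC, against 436, 644 and 628 CPM in HSC alone (-2.78 ± 0.21, adjusted p = 7.35e-07), and its partner gene Ramp1 had 7.30, 8.17 and 13.9 CPM in co-culture HSC, against 159, 208 and 244 CPM in HSC alone (-4.32 ± 0.35, adjusted p = 3.78e-06). Adra2b, an adrenergic receptor, had 8.32, 8.28 and 10.2 CPM in co-culture HSC, against 255, 412 and 447 CPM in HSC alone (-5.33 ± 0.45, adjusted p = 8.75e-06). No co-culture library reached any library of HSC alone in these 4 genes. The endothelin receptor genes Ednra and Ednrb fell (log2 fold changes -1.61 and -2.13), as did the guanylate cyclase genes Gucy1a1 and Gucy1b1, which sense nitric oxide (-1.14 and -1.01). Rgs5, a pericyte regulator of G protein signalling, had 105, 144 and 126 CPM in co-culture HSC, against 646, 1078 and 1304 CPM in HSC alone (-2.98 ± 0.51, adjusted p = 0.00123). Rgs4, another of these regulators, had 20.5, 35.1 and 30.3 CPM in co-culture HSC, against 6.62, 8.77 and 16.9 CPM in HSC alone (1.45 ± 0.41, adjusted p = 0.0205), and its call was lost without co-culture replicate 2 or 3, without mono-culture replicate 1 or 2 and without a low-count filter. The other gene that rose, Nos3, had 1.79, 0.983 and 1.60 CPM in co-culture HSC, against 0.535, 0.198 and 0.616 CPM in HSC alone, and was not called after subtraction of the organoid share (log2 fold change 2.53, adjusted p = 0.0538). No gene of the list rose without co-culture replicate 3 or without mono-culture replicate 2, and 1 rose without co-culture replicate 1 or 2 or mono-culture replicate 1.

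In the ephrin, semaphorin and axon guidance list, 6 of 33 genes rose and 6 fell (median log2 fold change 0.22). The genes called were 36.4% of the list, near the 31.1% of all genes. Slit3, a secreted guidance protein, had 232, 276 and 165 CPM in co-culture HSC, against 2.14, 0.725 and 3.98 CPM in HSC alone (6.63 ± 0.46, adjusted p = 1.75e-06), and Ntn1, netrin 1, had 40.3, 60.05 and 53.9 CPM in co-culture HSC, against 222, 335 and 329 CPM in HSC alone (-2.48 ± 0.25, adjusted p = 1.27e-05). Sema3d had 6.02, 7.14 and 4.93 CPM in co-culture HSC, against 43.7, 56.2 and 64.8 CPM in HSC alone (-3.14 ± 0.17, adjusted p = 6.05e-08). Unc5b, a netrin receptor, rose by 1.29 and Robo2, a Slit receptor, fell by 1.54 on the log2 scale. Without mono-culture replicate 1, 10 genes of that list rose.

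Genes of antigen presentation by MHC class I were lower. Of 19 tested 17 fell, with a median log2 fold change of -1.74, and the other 2, the chaperone genes Calr and Pdia3, rose. H2-D1, a class I heavy chain, had 504, 806 and 728 CPM in co-culture HSC, against 4448, 5697 and 6952 CPM in HSC alone (log2 fold change -3.03 ± 0.23, adjusted p = 6.71e-07). B2m, the light chain, had 823, 1180 and 1019 CPM in co-culture HSC, against 3671, 4138 and 5385 CPM in HSC alone (-2.09 ± 0.22, adjusted p = 1.34e-05). For both genes the co-culture libraries were far below HSC alone, and co-culture ICO had 510.1 to 614 CPM of H2-D1 and 562 to 739 CPM of B2m. Nlrc5, the transactivator of class I genes, had 0.384, 2.07 and 0.960 CPM in co-culture HSC, against 13.1, 14.8 and 17.9 CPM in HSC alone (-3.58 ± 0.47, adjusted p = 8.43e-05), and the immunoproteasome subunit gene Psmb9 had 3.71, 10.03 and 6.59 CPM in co-culture HSC, against 47.9, 53.7 and 80.6 CPM in HSC alone (-3.08 ± 0.30, adjusted p = 8.16e-06). Tap2, of the peptide transporter, had 24.2, 30.8 and 24.5 CPM in co-culture HSC, against 74.2, 88.3 and 111 CPM in HSC alone (-1.74 ± 0.16, adjusted p = 2.72e-06). H2-Q6 and H2-Q7 fell by 2.76 and 3.20 on the log2 scale, but near-identical class I genes may share reads and their single values are uncertain. With only the 6 libraries compared, neither chaperone gene was called.

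Of 30 interferon-stimulated genes 21 fell and 5 rose (median log2 fold change -1.11). Ifih1, the sensor MDA5, had 9.98, 14.5 and 14.6 CPM in co-culture HSC, against 54.1, 56.3 and 72.1 CPM in HSC alone (log2 fold change -2.17 ± 0.19, adjusted p = 2.15e-06). Ifit3b had 1.28, 0.517 and 0.512 CPM in co-culture HSC, against 7.29, 10.6 and 13.4 CPM in HSC alone (-3.90 ± 0.33, adjusted p = 1.56e-06), although it has a close copy in Ifit3, which may share its reads. Irf7, a transcription factor of the interferon response, had 9.98, 5.95 and 6.91 CPM in co-culture HSC, against 20.7, 21.4 and 27.2 CPM in HSC alone (-1.59 ± 0.21, adjusted p = 9.98e-05). None of these genes overlapped between the groups. Bst2, tetherin, rose with 58.1, 97.96 and 73.1 CPM in co-culture HSC, against 21.4, 23.5 and 23.1 CPM in HSC alone (1.80 ± 0.16, adjusted p = 2.14e-06), as did Gbp2 (1.15 ± 0.21, adjusted p = 0.00119), Isg15, Ifi27 and Zbp1. The count that rose was 3 without co-culture replicate 2 or mono-culture replicate 1 or 2. Macrophages express class I and interferon-stimulated genes too, and the part of the lower macrophage sum in both results was not tested. The interferon-response core, a pair of GAAA 2 bases apart, was found in 15 of 24 promoters of the interferon list (62.5%) and 4 of 17 of the class I list (23.5%), against 3.99% of 27025 genes. In the interferon list the core was in 3 of 3 genes that rose, 10 of 18 that fell and 2 of 3 not called. A link of the core to the fall was not tested. The Ifit3b promoter, which carries it at 2 places on the reverse strand, is shown with those in capitals (RefSeq, GRCm38.p6, chr19:34607707-34608006, plus strand).
Ifit3b: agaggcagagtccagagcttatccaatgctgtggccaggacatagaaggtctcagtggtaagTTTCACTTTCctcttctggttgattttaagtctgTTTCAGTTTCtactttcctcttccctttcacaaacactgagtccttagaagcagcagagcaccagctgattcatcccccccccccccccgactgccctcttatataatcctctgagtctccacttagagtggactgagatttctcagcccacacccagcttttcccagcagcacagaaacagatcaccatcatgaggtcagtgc

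Of 22 complement genes 14 fell (median log2 fold change -2.20), and none rose with edgeR or DESeq2, 1 having a higher level at an unadjusted p under 0.05. The 14 were 63.6% of the list, while 13.8% of all genes fell. Masp1, a protease of the lectin pathway, had 312, 445 and 349.8 CPM in co-culture HSC, against 1951, 2585 and 3160 CPM in HSC alone (log2 fold change -2.76 ± 0.21, adjusted p = 5.94e-07). C1ra, the classical pathway protease, had 39.2, 58.8 and 37.2 CPM in co-culture HSC, against 192, 194 and 286 CPM in HSC alone (-2.27 ± 0.27, adjusted p = 5.18e-05), and Serping1, the inhibitor of both proteases, had 433, 600.3 and 349.8 CPM in co-culture HSC, against 999.5, 1039 and 1547 CPM in HSC alone (-1.33 ± 0.23, adjusted p = 0.000773). These 3 genes were lower in each co-culture library than in any library of HSC alone, and near 0 in co-culture ICO. C1qb, C1qc, C3ar1 and C5ar1, which are also in the macrophage list, are 4 of the 14, and the part of macrophage RNA in their fall was not tested. After subtraction C1qb and C1qc were not called (log2 fold changes -3.32 and -3.57, adjusted p = 0.0614 and 0.054). C4a and C4b are near-identical and may share reads. The count that fell was 8 without co-culture replicate 1, 9 without co-culture replicate 3, 8 without mono-culture replicate 3 and 8 with the organoid share as a covariate, and 2 rose without mono-culture replicate 1.

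Glycolysis and hypoxia genes rose, 28 of 30, with a median log2 fold change of 2.19. Gapdh had 3229, 3322 and 3245 CPM in co-culture HSC, against 1004, 659 and 469 CPM in HSC alone (log2 fold change 2.25 ± 0.23, adjusted p = 1.02e-05). Slc2a1, the glucose transporter GLUT1, had 388, 499 and 564 CPM in co-culture HSC, against 154, 94.1 and 74.6 CPM in HSC alone (2.22 ± 0.22, adjusted p = 7.07e-06), and Bnip3, a mitophagy receptor that hypoxia induces, had 223, 324 and 336 CPM in co-culture HSC, against 47.8, 54.3 and 45.1 CPM in HSC alone (2.63 ± 0.14, adjusted p = 5.65e-08). Each co-culture library exceeded every library of HSC alone in all 3 genes. The co-culture organoids had similar or higher levels, with 2743 to 3828 CPM of Gapdh, 544 to 672 CPM of Slc2a1 and 334 to 385 CPM of Bnip3. Only P4ha1, Slc2a3, Slc16a3 and Pfkfb4 were above every co-culture ICO library. P4ha1, a collagen prolyl hydroxylase, had 594, 713 and 532 CPM in co-culture HSC, against 123, 115 and 143 CPM in HSC alone (log2 fold change 2.32 ± 0.14, adjusted p = 1.04e-07), with 149 to 184 CPM in co-culture ICO. Slc16a3, the lactate exporter MCT4, had 147, 329 and 267 CPM in co-culture HSC, against 19.3, 11.1 and 2.52 CPM in HSC alone (4.56 ± 0.61, adjusted p = 0.000365), with 114 to 129 CPM in co-culture ICO. Pfkfb4 had 24.4, 33.3 and 22.1 CPM in co-culture HSC, against 8.09, 9.30 and 10.1 CPM in HSC alone (1.58 ± 0.21, adjusted p = 9.28e-05), with 3.43 to 5.64 CPM in co-culture ICO. At the estimated organoid share, carried-over RNA would make up 35% of the co-culture level of Bnip3, 29.4% of that of Gapdh and 7.75% of that of P4ha1. In HSC alone it would make up 56.5% of the level of Bnip3 and 12.6% of that of P4ha1. After the share was subtracted from each library, 26 genes rose, the calls of Pkm (log2 fold change 3.30, adjusted p = 0.105) and Car9 (log2 fold change 0.54, adjusted p = 0.736) being lost.

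The core of the hypoxia response element, ACGTG, was found in the promoters of 20 of 28 members with a RefSeq promoter (71.4%) and of 21.8% of 27025 genes. It was in 19 of 26 members that rose and 1 of 2 not called. A link of this core to the rise was not tested. The promoters of Bnip3, as high in organoids, and P4ha1, higher in HSC, are shown with the match in capitals (RefSeq, GRCm38.p6). Bnip3 is from chr7:138909457-138909756 on the minus strand, where overlapping matches on both strands form a palindrome, and P4ha1 from chr10:59323046-59323345 on the plus strand, with the match on the reverse strand.
Bnip3: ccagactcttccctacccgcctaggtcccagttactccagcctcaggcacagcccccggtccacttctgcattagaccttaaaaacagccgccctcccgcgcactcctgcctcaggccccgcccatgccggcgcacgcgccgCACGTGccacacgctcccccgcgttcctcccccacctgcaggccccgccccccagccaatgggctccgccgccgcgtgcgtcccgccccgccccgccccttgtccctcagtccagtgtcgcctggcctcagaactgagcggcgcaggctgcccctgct
P4ha1: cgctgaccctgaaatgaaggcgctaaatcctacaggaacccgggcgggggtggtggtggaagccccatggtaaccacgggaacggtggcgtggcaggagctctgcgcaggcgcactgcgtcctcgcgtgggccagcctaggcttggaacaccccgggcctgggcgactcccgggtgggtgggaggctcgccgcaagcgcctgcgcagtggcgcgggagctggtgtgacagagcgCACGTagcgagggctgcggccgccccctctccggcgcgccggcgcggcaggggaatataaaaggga

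Of 36 cell cycle genes 19 rose (median log2 fold change 0.97), each of the 19 above every co-culture ICO library. The 19 were 52.8% of the list, while 17.3% of all genes rose. Mki67, a marker of dividing cells, had 33.9, 29.5 and 23.9 CPM in co-culture HSC, against 24.9, 13.2 and 11.8 CPM in HSC alone (log2 fold change 0.86 ± 0.28, adjusted p = 0.0305). Ccne1, cyclin E1, had 19.5, 37.1 and 23.3 CPM in co-culture HSC, against 13.7, 4.09 and 7.34 CPM in HSC alone (1.72 ± 0.34, adjusted p = 0.00201), and Cdk1 had 65.7, 93.6 and 64.3 CPM in co-culture HSC, against 53.02, 28.1 and 22.5 CPM in HSC alone (1.16 ± 0.25, adjusted p = 0.00403). In each gene mono-culture replicate 1, whose organoid share was the highest of its group, was also the highest library of HSC alone, and for Mki67 it overlapped the co-culture libraries. The count of genes that rose was 32 without that library, 12 without co-culture replicate 1, 8 without co-culture replicate 2, 6 without mono-culture replicate 2 and 8 without mono-culture replicate 3. It was 9 with only the 6 libraries compared, where the call of Mki67 was lost (adjusted p = 0.0866). That call was also lost without co-culture replicate 1 or 2 and without mono-culture replicate 2 or 3 (adjusted p between 0.0623 and 0.126), and with the organoid share as a covariate (log2 fold change 0.74, adjusted p = 0.056). The count that rose was 15 with that covariate and 27 after the share was subtracted. Cenpa, the histone of the centromere, rose by 1.19 ± 0.20 log2 units (adjusted p = 0.000675).

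Among 19 p53 targets and senescence inhibitors 9 rose and 2 fell (median log2 fold change 0.67), 57.9% against 31.1% of all genes. Cdkn1a, the inhibitor p21, had 219.9, 311 and 301 CPM in co-culture HSC, against 99.7, 64.7 and 55.2 CPM in HSC alone (log2 fold change 1.97 ± 0.20, adjusted p = 8.21e-06), and Mdm2, the p53 ubiquitin ligase, rose by 0.81 log2 units (adjusted p = 0.000398). None of the 9 had every co-culture HSC library above every co-culture ICO library. Cdkn1b, the inhibitor p27, had 4.74, 12 and 21.4 CPM in co-culture HSC, against 27.4, 45.95 and 41.9 CPM in HSC alone (-1.53 ± 0.39, adjusted p = 0.0107), a call lost when the organoid share was subtracted (log2 fold change -1.89, adjusted p = 0.0893) and with only the 6 libraries compared (log2 fold change -1.64, adjusted p = 0.0546), where the fold change was no smaller. Plk2, a p53-induced kinase gene, rose by 1.03 and Sesn1, a sestrin gene, fell by 1.01 on the log2 scale.

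Of 24 targets of YAP and TAZ, the cofactors that respond to cell stretch and density, 11 rose and 2 fell (median log2 fold change 0.73). The genes called were 54.2% of the list, against 31.1% of all genes. Ccn1 had 959, 956 and 1121 CPM in co-culture HSC, against 412, 230.1 and 185 CPM in HSC alone (1.93 ± 0.23, adjusted p = 3.53e-05) and Ccn2, connective tissue growth factor, had 625, 538 and 991 CPM in co-culture HSC, against 302, 114 and 86.3 CPM in HSC alone (2.16 ± 0.40, adjusted p = 0.00163). Co-culture ICO had 1573 to 1736 CPM of Ccn1 and 1632 to 1852 CPM of Ccn2, and both calls were lost when the organoid share was subtracted (log2 fold changes 3.63 and 3.998, adjusted p = 0.0536 and 0.0854), with larger fold changes than before it. Of the 11, 3 were above every co-culture ICO library, 7 genes rose after subtraction and 6 with only the 6 libraries compared. Lats2, the kinase that restrains YAP, and Asap1 were the genes that fell (log2 fold changes -0.75 and -1.20). GGAATG, the site of the TEAD partners of YAP, was found in 8 of 17 promoters of the list (47.1%) and in 16.6% of 27025 genes. It was in 4 of 7 members that rose, 1 of 1 that fell and 3 of 9 not called. A link of this site to the rise was not tested. Of 22 immediate early genes 12 rose (median log2 fold change 0.71), 54.5% against the 17.3% of all genes that rose. The count was 6 after subtraction of the organoid share and 8 with only the 6 libraries compared. Fosl1, an AP-1 subunit, had 8.45, 9.62 and 8.96 CPM in co-culture HSC, against 0.669, 0.791 and 0.280 CPM in HSC alone (4.01 ± 0.39, adjusted p = 6.34e-06), and Nr4a1 had 161, 212 and 242 CPM in co-culture HSC, against 62.5, 56.8 and 75.04 CPM in HSC alone (1.71 ± 0.22, adjusted p = 6.8e-05). Neither overlapped between the HSC groups, and co-culture ICO had 7.26 to 10.02 CPM of Fosl1 and 253 to 281 CPM of Nr4a1, whose call was lost after subtraction although its log2 fold change was then 2.71 (adjusted p = 0.0846). Fosl2, another AP-1 subunit, rose by 1.44 ± 0.18 log2 units (adjusted p = 4.53e-05), and was above every co-culture ICO library.

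In the unfolded protein and secretory list 15 of 24 genes rose and 2 fell (median log2 fold change 0.60), 13 of the 15 above every co-culture ICO library. Hspa5, the chaperone BiP, had 1752, 1552 and 1382 CPM in co-culture HSC, against 946, 757 and 987 CPM in HSC alone (log2 fold change 0.85 ± 0.17, adjusted p = 0.00207), and Ssr2, of the translocon, had 345, 361 and 305 CPM in co-culture HSC, against 162, 109 and 120.3 CPM in HSC alone (1.42 ± 0.14, adjusted p = 5.69e-06). Herpud1, of the degradation machinery of the endoplasmic reticulum, had 104, 143 and 183 CPM in co-culture HSC, against 369.8, 459.5 and 499 CPM in HSC alone (-1.58 ± 0.19, adjusted p = 3.38e-05). Edem1, another gene of that machinery, rose by 1.15 on the log2 scale. Herpud1 and Ero1b were the members that fell, and 1 fell without co-culture replicate 2 or 3 or mono-culture replicate 2 or 3. The call of Ero1b was also lost with the replicate block (adjusted p = 0.053), with only the 6 libraries compared (adjusted p = 0.0548) and with the organoid share as a covariate (adjusted p = 0.158). In the list of serine synthesis and ATF4 targets 17 of 26 rose (median log2 fold change 0.79), 8 of the 17 above every co-culture ICO library. Aldh1l2, a mitochondrial folate enzyme, had 48.01, 55.3 and 42.2 CPM in co-culture HSC, against 7.42, 7.32 and 3.19 CPM in HSC alone (3.08 ± 0.32, adjusted p = 1.32e-05). Cth, which makes cysteine, had 16.6, 19.03 and 13.4 CPM in co-culture HSC, against 3.01, 2.31 and 2.18 CPM in HSC alone (2.76 ± 0.17, adjusted p = 1.21e-07), and Asns, asparagine synthetase, had 219, 232 and 193 CPM in co-culture HSC, against 115, 81.6 and 70.9 CPM in HSC alone (1.32 ± 0.26, adjusted p = 0.00242). All 3 were higher in every co-culture library than in any library of HSC alone. Of 32 genes of cholesterol and fatty acid synthesis 12 rose (median log2 fold change 0.30), 4 of the 12 above every co-culture ICO library. The 12 were 37.5% of the list, while 17.3% of all genes rose and 31.1% differed. Scd1, a stearoyl-CoA desaturase, had 248, 395 and 240.2 CPM in co-culture HSC, against 58.7, 16.4 and 122 CPM in HSC alone (2.20 ± 0.55, adjusted p = 0.0134). The call of Scd1 was lost without mono-culture replicate 1 and co-culture replicate 3 together (adjusted p = 0.0702). Scd2, a related desaturase, rose by 1.15 and Me1, the malic enzyme, by 1.47 on the log2 scale. Me1 was higher in co-culture ICO, with 335 to 397 CPM, than in co-culture HSC, with 222 to 280 CPM. The count of the list that rose was 7 without co-culture replicate 2, 6 without mono-culture replicate 2, 7 without mono-culture replicate 3 and 4 with only the 6 libraries compared.

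Of 24 integrins and adhesion genes 6 rose and 5 fell (median log2 fold change 0.46), 45.8% against 31.1% of all genes. Itga5, the fibronectin receptor chain, had 381, 602 and 366 CPM in co-culture HSC, against 38.2, 23.1 and 36.3 CPM in HSC alone (log2 fold change 3.83 ± 0.24, adjusted p = 1.91e-07), and Itga1, a collagen receptor chain, had 139, 168 and 111 CPM in co-culture HSC, against 316, 443 and 410.0 CPM in HSC alone (-1.44 ± 0.18, adjusted p = 5.18e-05). Itgb1, the common beta chain, rose by 0.63 and Tns1, tensin 1, fell by 2.29 on the log2 scale. The count of integrin genes that rose was 3 without co-culture replicate 1, 2 without mono-culture replicate 2 and 1 with only the 6 libraries compared. Of 18 Notch genes 3 rose and 4 fell (median 0.01), 38.9% against 31.1% of all genes. Notch3, the receptor of mural cells, had 3.46 to 14.8 CPM in co-culture HSC and 0.504 to 1.87 CPM in HSC alone, and Notch1 had 23.2 to 35.9 CPM in co-culture HSC and 64.3 to 88.99 CPM in HSC alone. Heyl, a Notch target of mural cells, rose by 3.20 ± 0.42 log2 units (adjusted p = 0.000143). Without co-culture replicate 1, 5 Notch genes rose, and without co-culture replicate 3, 2 fell. Of 12 hedgehog genes 3 rose and 2 fell (median 0.28), 41.7% against 31.1% of all genes. Gas1, a co-receptor, had 45.5 to 123 CPM in co-culture HSC and 20.2 to 31.9 CPM in HSC alone, and Hhip, an inhibitor and target of the pathway, had 17.4 to 43.4 CPM in co-culture HSC and 105 to 148 CPM in HSC alone. Boc, another co-receptor, rose by 2.55 on the log2 scale. The count that fell was 1 without any single library other than mono-culture replicate 1. Of 22 NRF2 targets and selenoproteins 5 rose and 3 fell (median 0.02), 36.4% against 31.1% of all genes. Selenop, the selenium carrier, had 82.4, 135 and 126 CPM in co-culture HSC, against 522, 641 and 746 CPM in HSC alone (-2.43 ± 0.20, adjusted p = 1.59e-06), with 105 to 126 CPM in co-culture ICO, and Cat, catalase, had 62.98 to 82.96 CPM in co-culture HSC and 161 to 192 CPM in HSC alone. Gpx8 and Sod2, genes of antioxidant enzymes, rose by 0.90 and 0.90 on the log2 scale. The count that rose was 8 without mono-culture replicate 1 and 3 without mono-culture replicate 2 or co-culture replicate 2 or 3. Of 13 mitochondrially encoded genes 2 rose, mt-Co2 and mt-Atp8 (median 0.29), 15.4% against 31.1% of all genes called. Of the 13, 5 rose without mono-culture replicate 2 and 1 without any single co-culture library. None rose without mono-culture replicate 1 or 3, with the organoid share as a covariate or with only the 6 libraries compared. In the contractile, cell cycle, immediate early, glycolysis, serine synthesis, lipid synthesis and mitochondrial lists no gene fell with edgeR or DESeq2 in the fit to all 12 HSC libraries, and none had a lower level at an unadjusted p under 0.05. With only the 6 libraries compared, 1 gene of the serine synthesis list fell. The mitochondrially encoded genes took 6.86% to 8.15% of counts in co-culture HSC and 5.07% to 8.60% in HSC alone.

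Of 13 portal fibroblast markers 6 rose and 3 fell (median log2 fold change 1.41), 69.2% against 31.1% of all genes. Their sum was 1031 to 1369 CPM in co-culture HSC and 83.2 to 463 CPM in HSC alone, with 2158 to 2821 CPM in co-culture ICO. Fbln2 and Ly6a made up most of the co-culture HSC sum, with 537 to 634 and 229 to 687 CPM. Organoids held both, with at most 634 and 2218 CPM in co-culture ICO. Thy1, a surface marker of portal fibroblasts, had 6.91, 7.81 and 8.25 CPM in co-culture HSC, against 0.334, 0.396 and 0.280 CPM in HSC alone (log2 fold change 4.53 ± 0.59, adjusted p = 7.26e-05). Fbln1, fibulin 1, had 41.7, 58.1 and 36.7 CPM in co-culture HSC, against 3.88, 2.64 and 2.35 CPM in HSC alone (3.99 ± 0.30, adjusted p = 5.82e-07), and Cd34 had 36.7, 68.99 and 57.5 CPM in co-culture HSC, against 6.22, 6.39 and 6.05 CPM in HSC alone (3.17 ± 0.40, adjusted p = 7.85e-05). These 3 were near 0 in co-culture ICO and did not overlap between the HSC groups. Eln, another gene of that list, fell as given above. Mesothelial markers summed to 456 to 1071 CPM in co-culture HSC, 68.7 to 597 CPM in HSC alone and 2252 to 2779 CPM in co-culture ICO. Of these 12 markers 2 were higher and none lower, 16.7% against 31.1% of all genes called. The pair that rose were Wt1, with 58.4 to 97.3 CPM in co-culture HSC and 10.5 to 18.9 CPM in HSC alone and 0.229 to 0.484 CPM in co-culture ICO, and Ildr2, with 6.72 to 8.59 CPM in co-culture HSC and 0.989 to 1.85 CPM in HSC alone and 1.73 to 3.596 CPM in co-culture ICO. The mesothelial marker Upk3b had 0, 0.103 and 1.73 CPM in co-culture HSC, against 0.134, 0.0659 and 0 CPM in HSC alone, and was near 0 in both groups. The part of other mesenchymal cells in the rise of matrix genes was not tested. Of 14 stellate or pericyte markers 2 rose and 8 fell. Of 24 endothelial markers 4 rose and 5 fell, 37.5% against 31.1% of all genes. Flt1 and Ptprb were among those that rose (log2 fold changes 2.24 and 5.62). The defining marker Pecam1 was at a low level, having 0.512 to 2.33 CPM in co-culture HSC and 1.40 to 2.31 CPM in HSC alone. Of 32 hepatocyte markers 4 rose and 9 fell (40.6%, against 31.1% of all genes). Their sum was 1449 to 3746 CPM in co-culture HSC, 860 to 1716 CPM in HSC alone and 7334 to 8763 CPM in co-culture ICO. Trf made up most of the co-culture sum, with 1042 to 2946 CPM in co-culture HSC, 241.5 to 764.5 CPM in HSC alone and at most 7067 CPM in co-culture ICO. Serpina1b was lower, with 6.72 to 22.02 CPM in co-culture HSC and 109.1 to 168.2 CPM in HSC alone. Without co-culture replicate 2, 5 hepatocyte markers fell, without mono-culture replicate 2, 1 rose, and without co-culture replicate 3 or mono-culture replicate 3, 2 rose. None of 32 cholangiocyte markers was called with edgeR or DESeq2, 1 having a higher level at an unadjusted p under 0.05, but 17 rose without mono-culture replicate 1, 2 rose without co-culture replicate 2 and 1 fell without co-culture replicate 3. No lymphocyte marker and, among mesothelial markers, none in the downward direction had an unadjusted p under 0.05 or was called by DESeq2. Of 15 squamous or mucosal epithelial genes Muc4 rose and Sprr2h fell, 13.3% against 31.1% of all genes called. Of these 15, 0 to 4 rose when 1 mono-culture library was left out. None fell when any 1 co-culture library or mono-culture replicate 1 was left out, and 2 fell without mono-culture replicate 3.

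**Figure D4:**
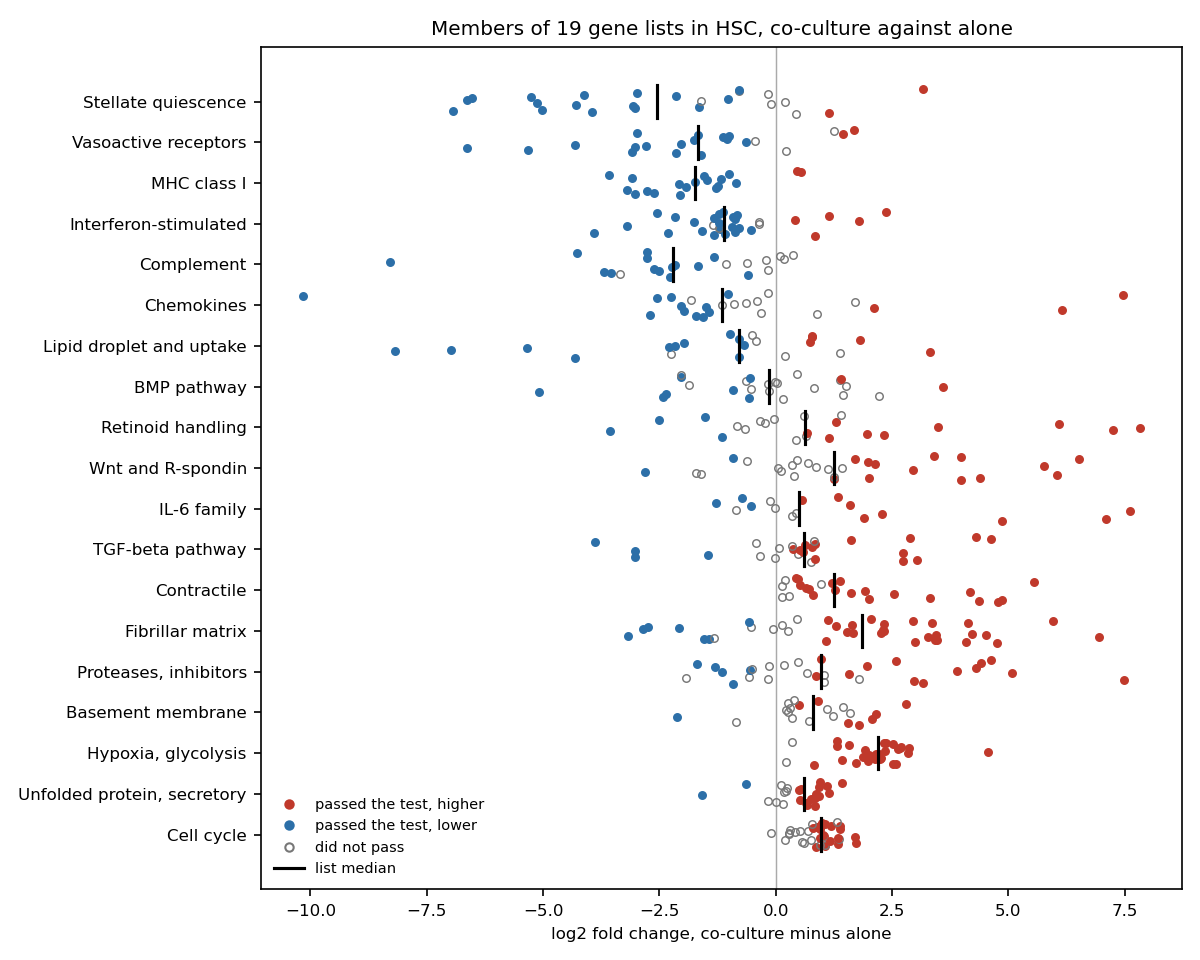
Log2 fold change, co-culture HSC over HSC alone, of every tested member of 19 gene lists (points, coloured by whether the gene rose, fell or was not called), with a line at each list's median. The glycolysis, fibrillar matrix and contractile lists lie mostly to the right of 0, the quiescence, class I, vasoactive and complement lists to the left, and the retinoid and TGF-beta lists on both sides.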

How the data were processed

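Bulk RNA-seq libraries were made by Smart-seq2 with Nextera XT, per the labels' protocols. The authors deposited estimated counts per gene, made with kallisto 0.46.1; DESeq2 1.36.0 and build GRCm39 are also listed, per the submitters' processing notes, which do not state their roles. The sources used here give no annotation release or filters. The counts were rounded to whole numbers, 17020 of 35667 genes passed filterByExpr, and edgeR 4.0.16 (R 4.3.3, TMM, robust quasi-likelihood) was fitted to the 12 HSC libraries. The contrast was co-culture minus mono-culture in Matrigel, with Benjamini-Hochberg adjustment over all genes and a threshold of 0.05. Standard errors are the log2 fold change over the square root of F. Organoid share is the median, over 17 cholangiocyte genes of at least 100 CPM in ICO and under 5 CPM in day 0 and plastic HSC, of the level relative to ICO of the same culture.

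Genes were named by rule among called genes without overlap between groups and with at least 10 CPM: the 12 largest rises above co-culture ICO, the 12 largest falls, up to 2 genes by F in each direction of each of 36 lists, and 8 markers. Clone names, pseudogenes, receptor segments and marker lists of other cell types were left out, and some genes are not reported here. Other genes named were chosen after their values were seen. The members and all 43 lists were chosen with earlier results of these data known. Total counts of 6907479 to 18764262 per library set the precision, and the floor for a count of 0 is 3 counts over the group. Alternatives were RLE scaling, other filters, DESeq2 1.42.0, other sets of libraries, the replicate number as a block, and organoid share as a covariate or subtracted. List counts under them, the bounds in list medians and the hypoxia, interferon and retinoic acid motifs were added after seeing the data. The method was tested on simulated data. Replicates sharing a number did not deviate together. No file coordinates are printed, since the reference tables are of another build.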

Additional observations from a re-analysis of the deposited data

How the results depend on the processing

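With only the 6 libraries compared, 1605 genes rose and 1848 fell, 64.2% of the main calls being kept. In the other fits the counts were 2253 to 3468 higher and 1848 to 2709 lower, apart from those without 1 library, which gave 2038 (without mono-culture replicate 2) to 3607 (without mono-culture replicate 1) higher and 1748 (without mono-culture replicate 3) to 2492 (without mono-culture replicate 1) lower. No call shared with an alternative changed sign. The replicate block gave 2682 higher and 2121 lower. Same-numbered libraries had deviations correlated at r = 0.022, -0.144 and -0.362 across genes, and 0 of 6 libraries correlated best with its own number. Because the organoid share also varied within each group, these values cannot tell whether the numbers pair the libraries. Of 138 named genes, 136 to 138 were tested in each alternative and 129 to 138 kept their call. Apart from the 8 markers they had been chosen as called in the main fit, so this says little of other genes. Of all genes called in the main fit, 64.2% to 98.5% were kept. Values near 0 turned sign for Pdgfrb, to -0.0104 with a filter of 10 CPM, -0.0289 with only the 6 libraries compared and -0.0297 without mono-culture replicate 1, ranging from -0.144 without co-culture replicate 2 to 0.294 without co-culture replicate 3. Des ranged from -0.0425 without co-culture replicate 2 to 0.367 without co-culture replicate 3. Des was called after subtraction of the organoid share (adjusted p = 0.0461). The log2 fold change of Acta2 was 8.22 without mono-culture replicate 1 and that of Mki67 1.39 without mono-culture replicate 1 and co-culture replicate 3. The macrophage count that fell was 67 with the 10 CPM filter. Estimates of organoid share moved by less than the spread between libraries. The causes were not tested. Groups of 3 libraries and the smallest total of 6907479 counts limit what can be detected among genes with few counts.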
